A study of Mus musculus with 23 samples.

Results

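The genes described here are 34 genes of G2 phase and mitosis, chosen by gene symbol from the 54354 rows of the deposited table, and all 34 were found there. They run from CDK1 and its cyclins through the mitotic kinases, the spindle checkpoint and the spindle motors to the genes of cytokinesis and chromosome folding. AKP-tdT organoids carrying the reporter Basp1-eGFP-DTR had been grown as tumours in the mouse colon, and digested primary tumours were sorted into GFP-negative and GFP-positive cells (12 and 11 bulk RNA libraries). Both groups carry the genotype named Basp1-GFP, in which green fluorescence stands for activity of the gene Basp1, and DTR stands for the diphtheria toxin receptor; no label gives a treatment, an age or a sex for any library. The letters HFD stand in the series title, but diet is not given for single libraries. The reporter belongs to the injected organoid cells, so host cells of the tumour can enter the GFP-negative gate, and no label says whether tdT was used to keep them out. Some library names join a pair of identifiers, and whether these are pooled animals is not said. No label states that each library is its own animal. The p-values below therefore rest on library-to-library spread, part of which may be technical.

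Cells that pass from DNA replication into mitosis switch on a shared set of genes late in the cycle. Cyclin A and cyclin B activate the kinase CDK1, which drives entry into mitosis, and the anaphase-promoting complex later ends mitosis by marking the cyclins for destruction. In the intestinal epithelium these transcripts mark the dividing crypt compartment, and in tumours they mark cycling cells. Their promoters often hold a CHR element, the site where the MuvB complexes DREAM and MMB act on transcription, together with CCAAT boxes, the site of the factor NF-Y.

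Promoter sequences are shown for the 6 tested members with the smallest p that the RefSeq promoter table (build GRCm38.p6) holds, since these genes head the comparison of the sorted populations. Each line gives the 250 bases before the RefSeq transcription start, written 5′ to 3′ on the strand of the gene, with capitals for CHR elements (TTTGAA or TTCGAA) and CCAAT boxes on either strand. Tpx2, with the smallest p of all, has no entry in that table.
Cdk1, chr10:69352913-69353162, minus strand: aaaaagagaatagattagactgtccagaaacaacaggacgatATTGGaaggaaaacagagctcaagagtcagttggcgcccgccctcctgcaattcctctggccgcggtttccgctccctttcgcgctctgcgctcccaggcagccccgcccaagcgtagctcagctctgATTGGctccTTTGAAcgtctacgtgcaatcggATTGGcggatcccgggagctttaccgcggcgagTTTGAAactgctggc
Birc5, chr11:117848987-117849236, plus strand: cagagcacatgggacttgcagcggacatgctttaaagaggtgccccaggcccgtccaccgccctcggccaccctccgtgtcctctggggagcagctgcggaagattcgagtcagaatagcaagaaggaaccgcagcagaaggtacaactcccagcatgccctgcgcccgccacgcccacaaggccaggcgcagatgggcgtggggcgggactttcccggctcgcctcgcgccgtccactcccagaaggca
Ccnb1, chr13:100786487-100786736, minus strand: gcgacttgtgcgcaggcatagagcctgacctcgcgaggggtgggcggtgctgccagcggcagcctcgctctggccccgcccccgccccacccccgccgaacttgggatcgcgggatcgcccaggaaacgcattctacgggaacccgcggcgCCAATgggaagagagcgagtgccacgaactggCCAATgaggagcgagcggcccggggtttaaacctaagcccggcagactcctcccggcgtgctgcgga
Ube2c, chr2:164769679-164769928, plus strand: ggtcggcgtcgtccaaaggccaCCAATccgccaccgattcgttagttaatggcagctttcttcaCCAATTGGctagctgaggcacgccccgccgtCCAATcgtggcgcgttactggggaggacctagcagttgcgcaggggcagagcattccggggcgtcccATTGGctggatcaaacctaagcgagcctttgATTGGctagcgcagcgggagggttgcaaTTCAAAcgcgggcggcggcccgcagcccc
Mki67, chr7:135716380-135716629, minus strand: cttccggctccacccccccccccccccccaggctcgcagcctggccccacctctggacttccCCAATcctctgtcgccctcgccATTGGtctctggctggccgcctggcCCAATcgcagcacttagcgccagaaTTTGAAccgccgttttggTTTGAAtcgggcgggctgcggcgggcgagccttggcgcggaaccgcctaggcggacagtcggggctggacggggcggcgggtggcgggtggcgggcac
Cdc20, chr4:118437344-118437593, minus strand: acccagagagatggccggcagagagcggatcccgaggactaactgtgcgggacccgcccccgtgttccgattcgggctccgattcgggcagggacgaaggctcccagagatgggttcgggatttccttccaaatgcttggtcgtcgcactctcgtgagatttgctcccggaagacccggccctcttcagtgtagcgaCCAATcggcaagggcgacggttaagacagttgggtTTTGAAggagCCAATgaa

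Cdk1, Mki67 and Cdc20 each hold CHR letters beside CCAAT boxes here, and Ube2c holds 1 CHR match and 6 CCAAT matches, 2 of which overlap. Ccnb1 holds 2 CCAAT boxes and no CHR match, and Birc5 holds neither in this window. Over the full window of 300 bases, which adds 50 bases after the start, both motifs were found together in 21 of the 29 members with an entry (72.4%). The same pair was found in 7.7% of the 27025 promoters of that length in the table, taking 1 per gene, and in 6.02% of the 5232 promoters of genes tested in the comparison over all libraries. At least 1 CHR match was present in 23 of the 29 (79.3%, against 19.4% of all promoters), and at least 2 CCAAT boxes in 17 (58.6%, against 12.2%). Top2a, with 4 CHR and 6 CCAAT matches, held the most CHR matches. Birc5, Tacc3 and Nusap1 held no match of either motif. TTCGAA reads the same on both strands and was counted once. A match is a match of letters, not a measured binding site, and its lack says nothing about the factor.

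**Figure D1:**
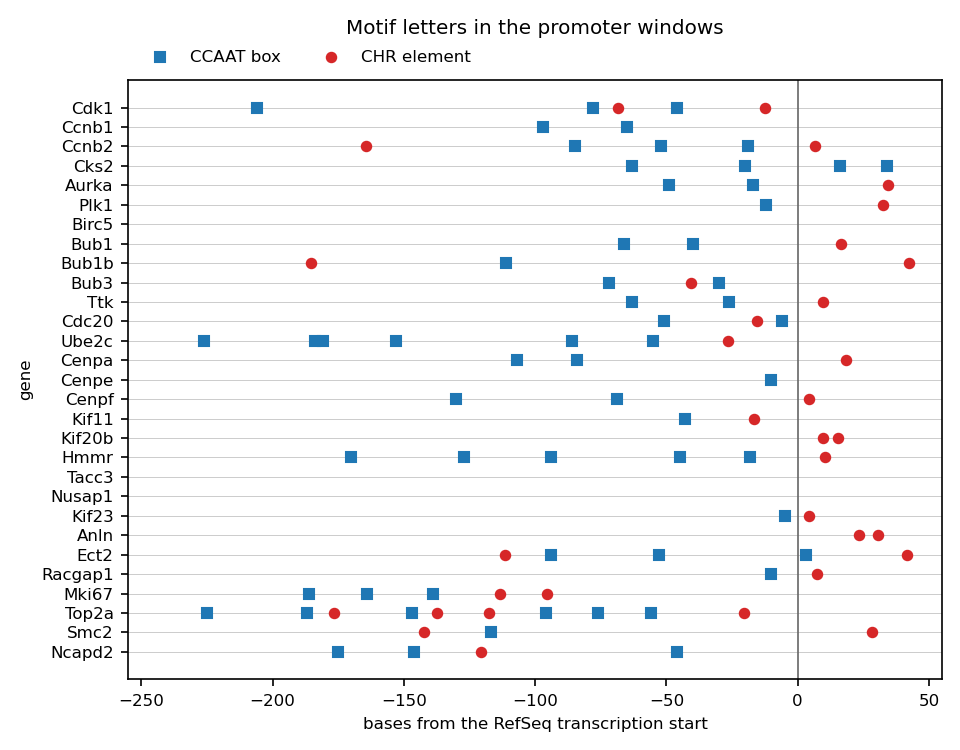
Positions of CHR (red circles) and CCAAT (blue squares) matches on either strand in the promoter windows of 29 members, one row per gene, with the RefSeq start at 0 on an axis in bases. The 21 genes with both motifs have CCAAT boxes mostly upstream, and 23 of the 34 CHR matches begin at -50 or later.

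The library facts that touch these genes come first. Total counts ran from 25458 to 2304316 in GFP-negative and from 37125 to 4238877 in GFP-positive libraries, with medians of 144334 and 1418140, so depth differed between the groups. Under 100000 counts were found in 4 libraries, which are numbers 4, 5 and 12 of the GFP-negative group and number 4 of the GFP-positive group. Numbers in the library names fall into 2 runs, and these runs were treated as library sets that may or may not be batches. Set 1 has 6 GFP-negative libraries and 5 GFP-positive ones, and set 2 has 6 of each. Basp1 ran from 0 to 83.8 CPM (counts scaled to a library total of 1000000; median 27.7) in GFP-negative and from 13.3 to 108 CPM (median 51.3) in GFP-positive libraries. The ranges overlapped, and Basp1 was higher in the GFP-negative library of identifiers 7421 (83.8 against 51.3 CPM), 40-1 (26.7 against 13.3) and 7914 (39.2 against 34.1). For all the other identifiers with both populations, Basp1 was higher in the GFP-positive libraries, for example in 5780 (79.9 against 17.0 CPM). The 14 epithelial markers summed to 3038 to 8160 CPM in GFP-negative and 3883 to 10715 CPM in GFP-positive libraries. Not each of them was found in every library. Cdx1 and Cdx2 had no count in 6 GFP-negative libraries each, and in 4 and 2 GFP-positive ones. Krt20 and Vil1 had none in 1 GFP-positive library each. The 12 fibroblast markers summed to a median of 2783 CPM (172 to 12887) in GFP-negative and 347 CPM (26.9 to 3194) in GFP-positive libraries. The 13 macrophage and monocyte markers summed to medians of 2772 CPM (422 to 7019) and 369 CPM (139 to 32459), the last being GFP-positive 3. Cd3d, Cd3e, Cd3g, Cd8a, Nkg7, Gzmb, Ncr1, Ms4a1 and Cd79a had no count in any library.

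Summed over the 34 genes, GFP-negative libraries held from 958 to 2498 CPM with a median of 1261 CPM (n = 12). GFP-positive libraries held from 750 to 1332 CPM with a median of 1051 CPM (n = 11). The ranges overlapped, and the 4 libraries above 1500 CPM were GFP-negative 2, 3, 4 and 5 at 2498, 2231, 1940 and 2121 CPM. All 4 belong to library set 1 and held 131307, 157362, 57728 and 25458 counts, at the shallow end of the series. GFP-negative 10, 11 and 12 of set 2, with 116211, 101996 and 69580 counts, were as shallow and had 1179, 1294 and 1437 CPM. The shallow library GFP-positive 4 of set 1, with 37125 counts, gave 1051 CPM (exact Poisson 95% interval 747 to 1436, counting error only). The mean log2 summed level was 10.50 ± 0.47 in GFP-negative and 9.99 ± 0.30 in GFP-positive libraries (SD, n = 12 and 11), a difference of -0.50, or -0.40 without the 4 libraries under 100000 counts. Relative to the summed epithelial markers in place of the library total, the difference was -0.71. Fewer cycling cells and less RNA of these genes per cycling cell cannot be told apart in bulk libraries, and depth and GFP group move together in this series. The part of depth in the result was not tested.

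By library set, the summed level was as follows. In library set 1 the GFP-negative libraries ran from 958 to 2498 CPM (median 2031, n = 6) and the GFP-positive from 750 to 1238 CPM (median 1051, n = 5). In library set 2 the GFP-negative libraries ran from 1000 to 1437 CPM (median 1190, n = 6) and the GFP-positive from 769 to 1332 CPM (median 1036, n = 6). Both sets therefore overlapped between groups. The 4 GFP-negative libraries above 1500 CPM had fibroblast markers of 172 to 825 CPM and macrophage markers of 883 to 1414 CPM, against 1854 to 12887 and 2530 to 6636 CPM in the GFP-negative libraries of set 2. GFP-negative 6, with 694 and 422 CPM of these markers, had the lowest summed level of the GFP-negative group, 958 CPM. The part of these markers in the result was not tested.

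**Figure D2:**
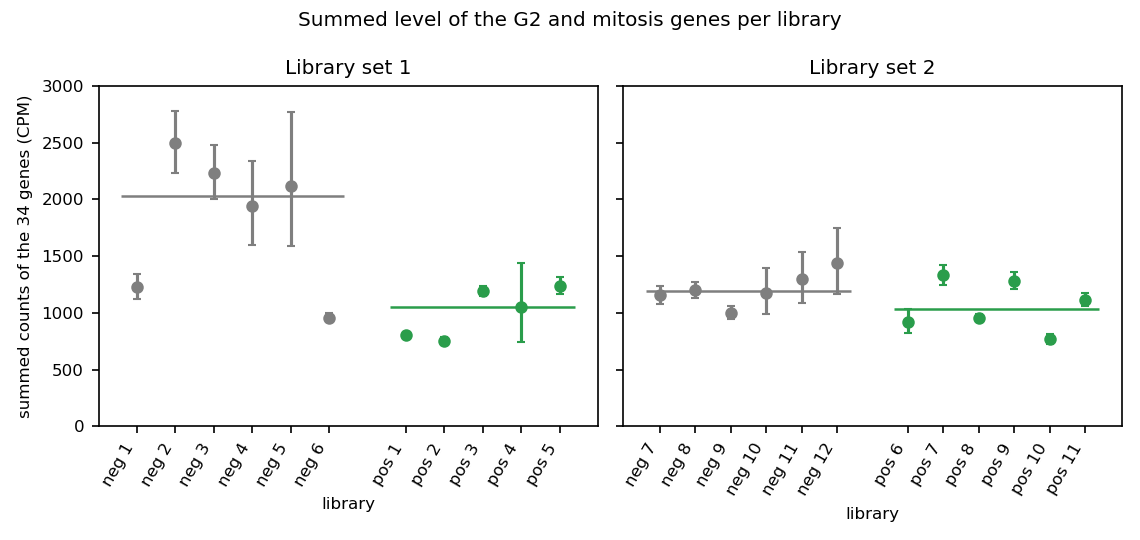
Summed counts of the 34 genes per library in CPM, with exact Poisson 95% intervals for counting error, by library set; grey is GFP-negative, green GFP-positive, and the lines are group medians. GFP-negative 2 to 5 lie between 1940 and 2498 CPM, above every GFP-positive library.

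At the start of the library names, 10 identifiers occur with both populations. For 8 of these 10, GFP-positive cells had the lower summed level, averaging where a population had several libraries. The lowest log2 difference was -1.01 in 7421, from 2498 to 1238 CPM, and the next was -0.95 in the joined identifier of GFP-negative 4 and 5 and GFP-positive 4, whose libraries held only 25458 to 57728 counts. Identifiers 7914, 3034, 7968, 5780, 61-1 and 40-1 had -0.75, -0.61, -0.37, -0.33, -0.21 and -0.06. Identifier 61-1 spans both library sets, and its GFP-positive libraries went opposite ways: against 1200 CPM in GFP-negative 8 (set 2), GFP-positive 2 (set 1) had 750 CPM and GFP-positive 7 (set 2) had 1332 CPM. The difference was above 0 in 7907, at 0.12, and in the joined identifier of GFP-negative 6 and GFP-positive 3, at 0.31. Gene by gene, Tpx2 had less in GFP-positive cells for 9 of the 10 identifiers, and Ube2c, Anln and Mki67 for 8, whereas Ccnb2 had more for 9.

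**Figure D3:**
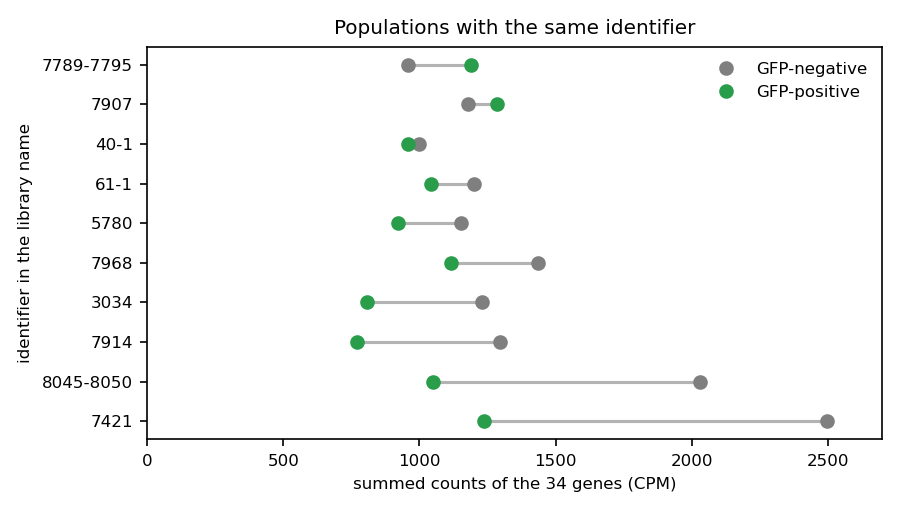
Summed level of the 34 genes in CPM for the 10 matched identifiers, grey for GFP-negative and green for GFP-positive, averaged where an identifier has several libraries of a population. The green point lies left of the grey one in 8 of 10 rows.

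Over all libraries, none of the G2 and mitosis genes passed the test between the sorted populations. The edgeR quasi-likelihood test took in 6621 genes and called 1 of them (0.0151%), the fibroblast gene Fbln1, at an adjusted p under 0.05. Of the 34 members, 21 passed the filter on low counts and 13 lay below it. Of these 21, 20 had a log2 fold change below 0 (GFP-positive minus GFP-negative), beside 41.5% of all tested genes, with a median of -0.43 beside 0.07. At an unadjusted p under 0.05, 5 members were on the lower side and 0 on the higher, beside 2.22% of all tested genes on the lower side and 4.95% on either. That count of 5 was 2 without GFP-negative 3, and 3 without GFP-negative 2, GFP-positive 1 or GFP-positive 10. It was also 3 without the 4 libraries under 100000 counts and with library set as a covariate. A gene that passed the filter only where it was high had to differ, so the fit without a filter is given for all 34. There 30 of 34 were below 0, beside 39.2% of 23846 genes, with a median of -0.29 beside 0.19, and 0 were called. DESeq2 called 0 of the 32 members to which it gave an adjusted p, beside 0.612% of 9961 genes, with 7 at an unadjusted p under 0.05, beside 5.83% of genes on that side. The value ranges of the groups overlapped for each of the 34 members. No such count over all genes stands beside this, so it does not set the members apart.

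**Figure D4:**
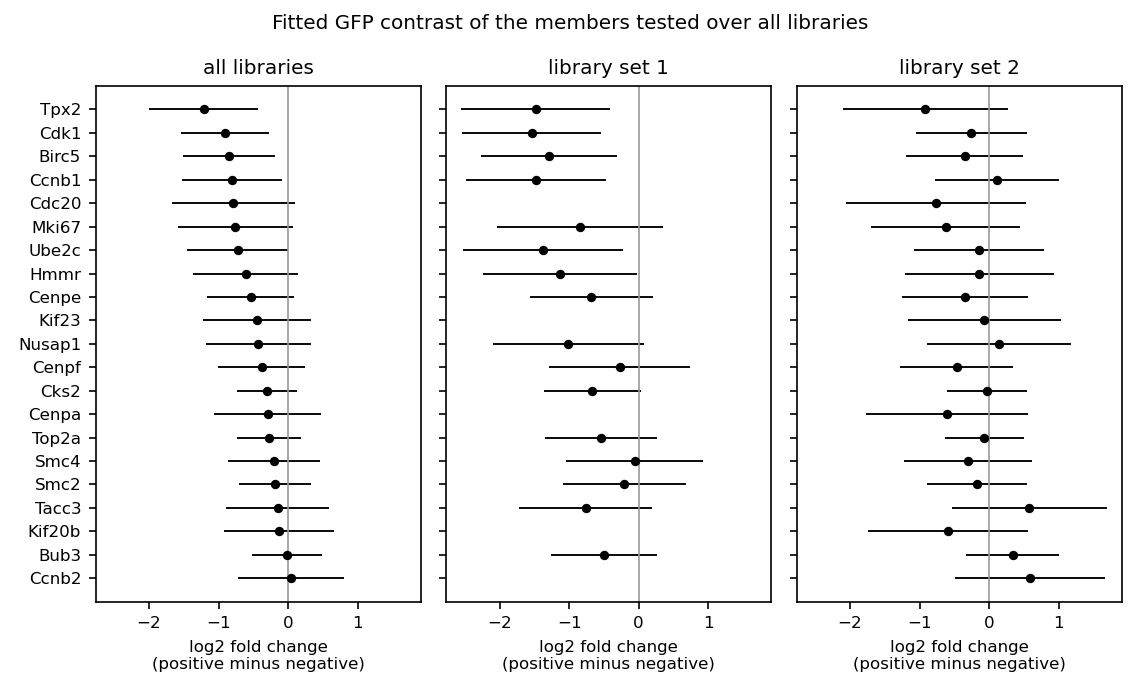
Log2 fold change with its 95% interval for the 21 members tested over all libraries, in the fit over all libraries and within each library set; a missing point was below the filter of that fit. Points of library set 1 lie left of 0, and those of library set 2 lie on both sides of it.

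Among the cyclins and CDK1, 4 of 5 genes were tested, with a median log2 fold change of -0.55. Cdk1 (ENSMUSG00000019942, chromosome 10, 69335146 to 69352938 on mm10), the mitotic kinase itself, ran from 25.8 to 196 CPM with a median of 78.3 in GFP-negative libraries. In GFP-positive libraries Cdk1 ran from 22.4 to 62.2 CPM with a median of 41.0. The highest value was that of GFP-negative 5, where 5 counts were read, and the groups overlapped at the low end. Its log2 fold change was -0.91 (SE 0.32), with an unadjusted p of 0.00648 and an adjusted p of 0.939 in edgeR. Ccnb1 (ENSMUSG00000041431, chromosome 13, 100778650 to 100786570), the cyclin B that activates CDK1, ran from 25.8 to 259 CPM (median 48.3) in GFP-negative and from 21.8 to 84.6 CPM (median 33.8) in GFP-positive libraries. Its fold change of -0.81 (SE 0.36, edgeR adjusted p = 0.992) became -0.48 without GFP-negative 2, the library with the highest level. The table also holds a pseudogene row for this cyclin with 0 counts and one for Ccnb2 with 3 counts, against 964 and 420 for the genes, and how Salmon shared reads among copies is not known.

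Other cyclin genes were nearer to 0. Ccnb2, another cyclin B, had 0.04 (SE 0.37), the only tested member above 0. Cks2, a small subunit that docks CDK1 to its substrates, had -0.30 (SE 0.21). Ccna2, cyclin A, did not pass the filter, with 57 counts in all GFP-negative libraries together and 114 in all GFP-positive ones. Without the filter Ccna2 had -0.32 (SE 0.57).

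Of the mitotic kinases, Plk1, Aurka and Aurkb all lay below the filter over all libraries. Plk1, the polo-like kinase of mitotic entry and spindle assembly, ran from 0 to 78.6 CPM (median 13.5) in GFP-negative and from 0 to 27.7 CPM (median 5.64) in GFP-positive libraries. Plk1 had no count in 3 GFP-negative libraries and in GFP-positive 4, where 3 counts would stand for 80.8 CPM, and at that depth a missing count is no sign of absence. Aurka, the centrosomal Aurora kinase, ran from 0 to 86.2 CPM (median 15.8) and from 0 to 35.1 CPM (median 11.01). Aurkb, the Aurora kinase of the chromosomal passenger complex, had the opposite order of medians, with 0 to 15.6 CPM (median 6.66) in GFP-negative and 4.72 to 26.9 CPM (median 9.57) in GFP-positive libraries. Without the filter their log2 fold changes were -0.79 for Plk1 (SE 0.56), -0.37 for Aurka (SE 0.46) and 0.67 for Aurkb (SE 0.53), each with an interval that spans 0. Birc5 (ENSMUSG00000017716, chromosome 11, 117849251 to 117855743), which encodes survivin of the same passenger complex as Aurkb, ran from 18.7 to 299 CPM (median 108) in GFP-negative and from 31.8 to 189 CPM (median 67.7) in GFP-positive libraries. Its fold change was -0.85 (SE 0.33, unadjusted p = 0.0129, edgeR adjusted p = 0.948), and -0.65 without the 4 libraries under 100000 counts. Birc5 and Aurkb thus stood on different sides of 0, though the difference between genes was not tested.

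Of the checkpoint and anaphase genes, 3 of 6 were tested, with a median of -0.73. Ube2c (ENSMUSG00000001403, chromosome 2, 164769898 to 164778822), the ubiquitin-conjugating enzyme of the anaphase-promoting complex, ran from 19.6 to 156 CPM (median 43.1) in GFP-negative and from 14.1 to 53.9 CPM (median 24.6) in GFP-positive libraries. The upper end of the GFP-negative range was GFP-negative 4 with 9 counts. Its fold change was -0.73 (SE 0.36, unadjusted p = 0.0477, edgeR adjusted p = 0.996), and -0.42 without the 4 libraries under 100000 counts. Cdc20, the activator of that complex at anaphase, ran from 0 to 45.3 CPM (median 14.7) and from 0 to 20.3 CPM (median 10.004). Its value of -0.79 (SE 0.44, edgeR adjusted p = 0.996) became -0.47 without GFP-negative 7. Bub3, a checkpoint protein that cells express outside mitosis as well, had -0.02 (SE 0.25) with medians of 104 and 108 CPM. The checkpoint kinase genes Bub1, Bub1b and Ttk lay below the filter, and without it Bub1 and Bub1b had -0.19 (SE 0.57) and -0.22 (SE 0.51). Ttk had 30 counts in GFP-negative and 28 in GFP-positive cells in all, and without the filter its log2 fold change was -1.76 (SE 0.76, edgeR adjusted p = 0.323).

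At the centromere, Cenpe, the kinesin that carries chromosomes to the spindle equator, ran from 19.6 to 121 CPM (median 44.4) in GFP-negative and from 13.5 to 55.1 CPM (median 38.3) in GFP-positive libraries. Its fold change was -0.54 (SE 0.31, edgeR adjusted p = 0.997). Cenpf and Cenpa, a kinetochore protein and the centromeric histone H3, had -0.38 (SE 0.31) and -0.30 (SE 0.38). The highest Cenpf level, 215 CPM in GFP-positive 4, rested on 8 counts.

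Tpx2 (ENSMUSG00000027469, chromosome 2, 152847964 to 152895321), a spindle assembly factor that activates the kinase Aurora A, had the smallest p of the members. It ran from 8.61 to 144 CPM with a median of 32.5 in GFP-negative libraries and from 0 to 33.8 CPM with a median of 17.5 in GFP-positive libraries. Its highest value was GFP-negative 12, with 10 counts in a library of 69580. In edgeR it gave -1.21 on the log2 scale (SE 0.39, 95% interval -1.99 to -0.43), with an unadjusted p of 0.00326 and an adjusted p of 0.730. Hmmr, Nusap1, Tacc3 and Kif20b, which bind or bundle spindle microtubules, had -0.61 (SE 0.37), -0.43 (SE 0.37), -0.15 (SE 0.36) and -0.14 (SE 0.39). Kif11, the motor that pushes spindle poles apart, lay below the filter with 46 and 109 counts in the groups, and had -0.25 (SE 0.57) without it.

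Cytokinesis genes were the thinnest group, with 1 of 5 tested. Kif23, a motor of the central spindle, had -0.45 (SE 0.38). Without the filter Kif20a, a motor of the same structure, had -0.75 (SE 0.46), Anln, which encodes the actin-binding anillin, had -0.31 (SE 0.46), and Racgap1, a GTPase-activating protein of the central spindle, had -0.19 (SE 0.62). Ect2, the exchange factor that activates RhoA at the cleavage furrow, had 0.23 (SE 0.49).

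Among the chromosome structure genes, Mki67 (ENSMUSG00000031004, chromosome 7, 135689784 to 135716361), which coats mitotic chromosomes and is the common marker of proliferation, ran from 0 to 163 CPM (median 52.9) in GFP-negative and from 9.22 to 103 CPM (median 32.5) in GFP-positive libraries. The highest GFP-positive value belonged to GFP-positive 3, the library with 32459 CPM of macrophage markers, and the part of those cells in it was not tested. The fold change was -0.76 (SE 0.41, edgeR adjusted p = 0.996). Top2a (ENSMUSG00000020914, chromosome 11, 98992943 to 99024189), the topoisomerase that untangles replicated chromosomes, had a count in every library. It ran from 85.0 to 314 CPM (median 144) and from 60.6 to 164 CPM (median 131), with a fold change of -0.27 (SE 0.23, edgeR adjusted p = 0.997), and -0.10 without the 4 libraries under 100000 counts. The condensin genes Smc2 and Smc4 had -0.19 (SE 0.25) and -0.21 (SE 0.33), and Ncapd2, of the same complex, lay below the filter with 43 and 104 counts and had -0.15 (SE 0.67) without it.

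Per kilobase of the longest coding transcript, Cks2 stood highest, with a median level of 156 CPM per kilobase over the 23 libraries. Bub3, Top2a and Birc5 came next with 30.7, 25.1 and 24.7, then Ccnb1 with 16.0 and Ube2c with 15.0. Ttk, Ncapd2 and Kif11 were lowest with 0.497, 1.02 and 1.06. GFP-positive 4 showed a count for 15 of the 34 genes and GFP-negative 5 for 20, while GFP-positive 8, with 3903913 counts, showed all 34.

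**Figure D5:**
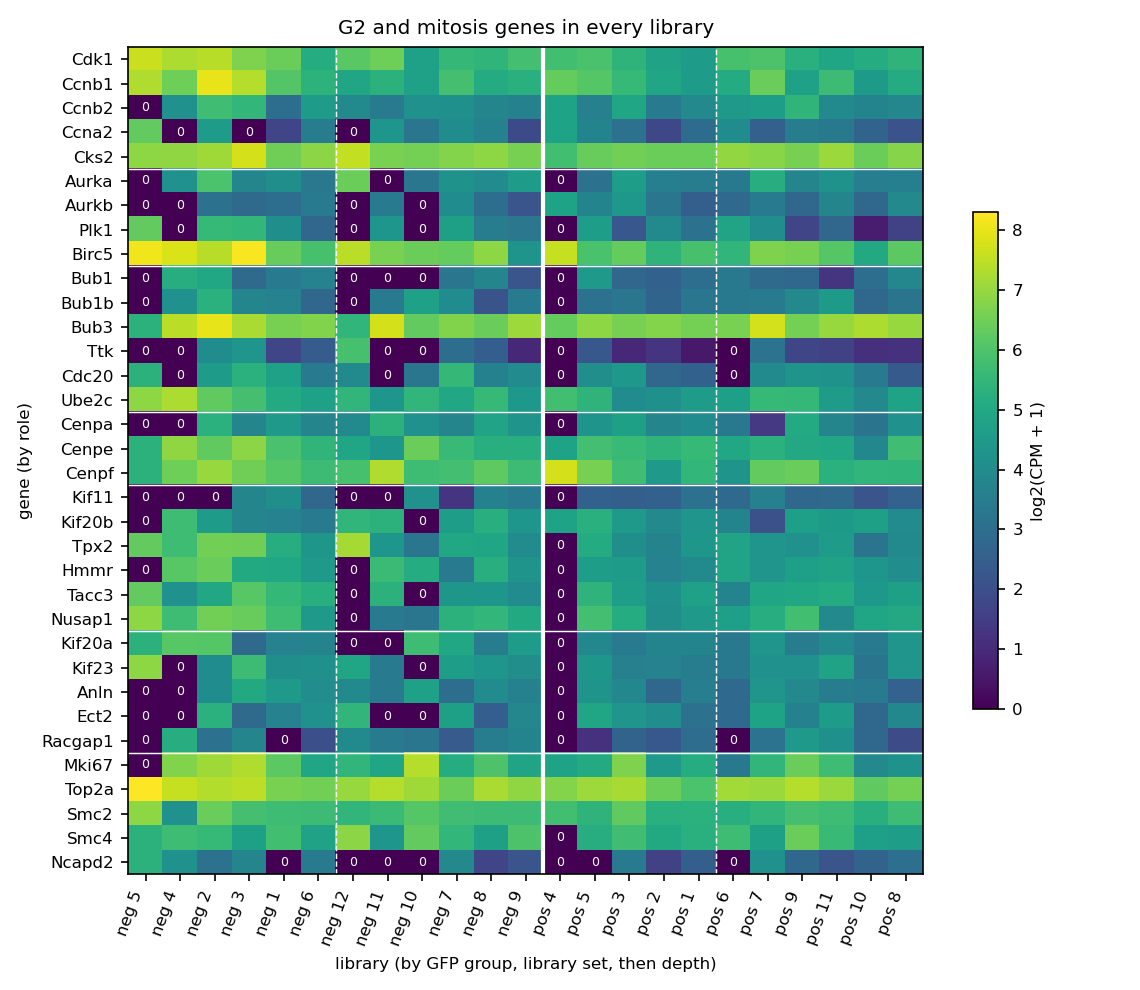
Level of each of the 34 genes as log2(CPM + 1) in each library; rows are grouped by role, columns by GFP group (thick line), library set (dashed line) and rising depth, and 0 marks no count. Zeros gather in the shallow libraries at the left of each block such as GFP-positive 4, where 15 of 34 genes had a count.

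Within library set 1 the edgeR test called 0 of 5256 genes (0.0%) and 0 members. All 16 tested members were below 0, beside 45.9% of tested genes, with a median of -0.80 beside 0.05. Without a filter 29 of 34 were below 0, beside 37.1% of genes. At an unadjusted p under 0.05 there were 6 members, all on the lower side, beside 5.4% of tested genes in either direction and 2.99% on the lower side. Cdk1 had -1.54 (SE 0.48), Ccnb1 -1.48 (SE 0.49), Tpx2 -1.48 (SE 0.52), Ube2c -1.37 (SE 0.56), Birc5 -1.29 (SE 0.47) and Hmmr -1.12 (SE 0.54), with a smallest adjusted p of 0.803 in edgeR. Mki67 had -0.84 (SE 0.57), and -1.64 without GFP-positive 3. Top2a had -0.54 (SE 0.39), and -0.34 without GFP-positive 1. Without the shallow libraries of this set, Top2a had -0.15 and Ube2c -0.83. In DESeq2, which called 0.211% of 5220 genes in this set, 0 of 18 members with an adjusted p were called and 5 had an unadjusted p under 0.05, beside 2.64% on that side.

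Within library set 2 edgeR called 89 of 6952 genes (1.28%), 86 of them lower in GFP-positive cells (1.24%), and 0 of 24 tested members. The members had a median of -0.21, 18 of 24 were below 0, beside 43.9% of tested genes, and 0 had an unadjusted p under 0.05, beside 6.88% of tested genes and 4.53% on the lower side. Without a filter 20 of 34 were below 0, beside 40.6% of genes. Single libraries moved the values of single genes. Tpx2 had -0.92 (SE 0.58), and -0.31 without GFP-negative 12. Mki67 had -0.62 (SE 0.52), and -0.13 without GFP-negative 10 or -0.99 without GFP-positive 9. Cdk1, the mitotic kinase, had -0.26 (SE 0.39), and -0.11 without GFP-negative 11 or -0.13 without GFP-positive 11. Birc5, the passenger complex gene, had -0.35 (SE 0.41). Its value was -0.19, -0.16 and -0.20 without GFP-negative 8, GFP-negative 12 and GFP-positive 10, and -0.62 without GFP-negative 9. Ccnb1 had 0.11 (SE 0.43), near 0 and with either sign when single libraries were left out. The highest values were 0.59 for Ccnb2 (SE 0.52) and 0.58 for Tacc3 (SE 0.54). DESeq2 called 2.5% of 11527 genes here, and 0 of 34 members, with 0 at an unadjusted p under 0.05, beside 8.4% of genes on the lower side. In the same libraries all 10 tested macrophage markers and 4 of 10 tested fibroblast markers were called lower in GFP-positive cells by edgeR, Apoe with a log2 fold change of -4.12 (SE 0.34) and Col1a1 with -3.90 (SE 0.64). The part of that RNA in the members' values was not tested.

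The difference of the GFP contrast between the sets (set 2 minus set 1) was itself tested. The edgeR interaction test called 0 of 6621 genes (0.0%) and 0 of 21 members, with 2 members at an unadjusted p under 0.05, both above 0, beside 6.4% of tested genes in either direction and 3.62% below 0. These 2 were Ccnb1 with 1.55 (SE 0.64, edgeR adjusted p = 0.687) and Cdk1 with 1.25 (SE 0.60, edgeR adjusted p = 0.762), and DESeq2 called 0 of 15 members, beside 0.226% of 4866 genes, with 1 at an unadjusted p under 0.05, beside 9.7%. Below 0 were 4 of the 21 members, beside 50.8% of tested genes, and the members' median was 0.60 beside -0.01. A difference between the library sets is therefore not shown for any member, and the intervals are wide.

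Of 74 further mitotic genes, listed apart from the 34, 22 were tested over all libraries. Of these, 17 were below 0 and 5 above, beside 41.5% of all tested genes below 0, and the median was -0.24. None was called in edgeR or DESeq2, and 3 had an unadjusted p under 0.05 in edgeR, beside 4.95% of all tested genes. Without the filter 50 of the 74 were below 0, beside 39.2% of genes, and 1 had an unadjusted p under 0.05. The 3 in the filtered fit were Hmgb2, a chromatin protein abundant in dividing cells, with -0.53 (SE 0.20), Cks1b, the relative of Cks2, with -0.53 (SE 0.22), and Cenpw with -0.68 (SE 0.33). S phase genes, which act one step earlier, had 16 of 23 tested genes below 0, a median of -0.20 and 0 called, and Pcna, the sliding clamp of DNA replication, had -0.37 (SE 0.19). Their summed level had medians of 1023 CPM in GFP-negative and 839 CPM in GFP-positive libraries. Subunits of the anaphase-promoting complex, which resting cells keep as well, had 6 of 14 tested genes below 0 and a median of 0.02, and Anapc13 had 0.11 (SE 0.21). A list of 15 genes held the late-cycle regulators FOXM1 and B-MYB with subunits of MuvB, DREAM and NF-Y. Of these, 5 were tested, all of them subunits of MuvB, DREAM or NF-Y. Only 1 was below 0 (Rbbp4, -0.08, SE 0.27), and none was called in edgeR. Foxm1 and Mybl2 (B-MYB), which bind with MuvB to drive the G2 programme, were below the filter, so the list gives no test of them.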

How the data were processed

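Bulk RNA was measured in 12 GFP-negative and 11 GFP-positive mouse libraries made by poly(A) selection with a directional kit, per the labels' protocols, which speak of organoids as the RNA source where the design text speaks of tumours. The authors deposited expected counts for genes, as whole numbers; the submitters' processing notes name Salmon 1.3.0 and mm10. Which annotation and options were used is not stated in any source at hand. Of these rows, 1243 lack a symbol.

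The comparisons used edgeR 4.0.16 in R 4.3.3 on the whole table: a filterByExpr filter by group, TMM library scaling, robust quasi-likelihood dispersions, no covariates, and p-values adjusted by Benjamini-Hochberg (threshold 0.05), over all libraries, within each library set, and as an interaction. The counting floor was 3 counts. Alternatives were no filter, RLE scaling, DESeq2 1.42.0, blocks, a library set covariate, and left-out libraries. The exact Poisson intervals and the floors cover counting error only, and reads need not be independent molecules. Intervals of fold changes come from the fits and include library-to-library spread. Each SE was worked back from the fold change and the F statistic of its test, so it need not match every p. Coordinates and lengths come from GENCODE M21 (mm10), promoters from RefSeq. Fits were also run on simulated counts with the same dispersion for every gene and no library set or identifier effects. That setting is simpler than these data, so it does not show how the fits behave on them.

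The members and lists were chosen with earlier results of these data known. Full values are given for the 8 tested members with the smallest p and for Mki67, Top2a, Cdk1, Ccnb1, Plk1, Aurka and Aurkb, and any member called in a fit; others are given by role. From other lists, called genes (at most 3 by smallest p) or else the most expressed tested member may be named; Hmgb2, Cks1b, Cenpw and Pcna were named after their values were seen.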

Additional observations from a re-analysis of the deposited data

Results flagged for a closer look

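Among the 12 genes with full values and their sum, 52 groups of 5 or 6 libraries within a library set were screened for a library whose gap to its nearest neighbour exceeds Dixon's 95% critical value. For normally distributed values chance flags about 5% of groups, but these CPM values were not shown to be normal. The rule found 8 libraries and genes, each the highest of its group, and their number is not read as an excess over chance. Several rest on few counts. Tpx2 was 144 CPM in GFP-negative 12, from 10 counts, against 8.61 to 29.7 CPM in the other GFP-negative libraries of set 2. Birc5 was 189 CPM in GFP-positive 4, from 7 counts, against 41.4 to 79.3 CPM. Mki67 was 163 CPM in GFP-negative 10, from 19 counts, against 27.6 to 62.6 CPM.

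Mki67 was also high in GFP-positive 3, at 103 CPM from 219 counts, against 21.03 to 33.97 CPM in the other GFP-positive libraries of set 1. Cdc20 was 45.3 CPM in GFP-negative 7, from 32 counts, against 0 to 15.1 CPM. Aurka stood apart in 3 groups: 60.9 CPM in GFP-negative 2 from 8 counts, against 0 to 17.3 CPM; 86.2 CPM in GFP-negative 12 from 6 counts, against 0 to 23.1 CPM; and 35.1 CPM in GFP-positive 7 from 22 counts, against 9.22 to 18.3 CPM.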

How the results depend on the processing

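No member was called in any of the fits run, in edgeR or DESeq2. In the comparisons over all libraries and within each set, the median log2 fold change of the tested members stayed below 0 under every alternative run. It ran from -0.51 to -0.31 over all libraries, -0.98 to -0.53 in set 1 and -0.28 to -0.12 in set 2 when 1 library was left out. Without the 4 libraries under 100000 counts, 25 of 26 tested members were below 0, with a median of -0.40, and leaving out GFP-positive 3 as well, a choice made after seeing the data, gave 25 of 26 and -0.47. The summed level difference ran from -0.56 to -0.43 with 1 library left out.

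Values near 0 in set 2 changed sign. Top2a had 0.075 with no filter and ran from -0.15 to 0.037 with 1 library left out, and Aurka had 0.042 without the libraries under 100000 counts and ran from -0.77 to 0.042. Ube2c ran from -0.31 to 0.063 and Ccnb1 from -0.23 to 0.34. The cause was not tested.

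Counts of called genes of the whole table moved more. Over all libraries 1 gene was called, against 61 in DESeq2 and 0 without the shallow libraries and GFP-positive 3. With 1 library left out it ran from 0 to 16: 16 without GFP-positive 3, 3 without GFP-positive 1, and 0 without GFP-negative 1, 2, 5, 6, 7, 8, 9, 10, 11 or 12. In set 1, 0 genes became 11 in DESeq2 and from 0 to 6 with 1 library left out (6 without GFP-negative 6, 1 without GFP-negative 1 or GFP-positive 3). In set 2, 89 became 375 with no filter, 288 in DESeq2 and from 65 to 118 with 1 library left out. The interaction count of 0 became 1 with no filter, 11 in DESeq2 and 6 without GFP-negative 6, its range being 0 to 6. RLE scaling moved the interaction median of all genes from -0.01 to -0.16, and that of the members from 0.60 to 0.47.

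Pairing was checked by the correlation of deviations from the group means. For same-identifier pairs it ran from -0.22 to 0.40 (median 0.08) and passed 0.1 in 5 of 12. For pairs with the same title number it ran from -0.17 to 0.40 (median -0.02) and passed 0.1 in 2 of 11. Pairs with different identifiers had a median of -0.01 and passed 0.1 in 17 of 120. The fits without blocks treat libraries that share an identifier as independent. The rule that every pair pass 0.1 was not met, and no label says that an identifier is 1 animal, so pairing was not established by these data or labels. A block by identifier called 2 genes over all libraries and 140 in set 2, and a block by title number called 0. Under the identifier block 18 of 22 tested members were below 0, with a median of -0.30, and the members at an unadjusted p under 0.05 were 2 in place of 5 over all libraries and 1 in place of 6 in set 1. Birc5, Ccnb1 and Cenpe then had -0.46, -0.41 and -0.30 over all libraries, against -0.85, -0.81 and -0.54. Without the shallow libraries and GFP-positive 3, Ube2c had -0.37, against -0.73.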

Other observations

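In the promoter windows, CHR matches of the members lay close to the transcription start. Of 34 matches, 23 (67.6%) began between 50 bases before the start and the end of the window, the last 100 bases of 300. The other mitotic genes had 38 of 49 matches there (77.6%), against 24.7% of the 6066 matches in all promoters. Both motifs stood together in 51.7% of 58 promoters of the other mitotic genes and in 10.3% of 29 promoters of S phase genes. These shares describe letters in windows set by RefSeq starts, and no binding was measured.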
